A study of Mus musculus with 6 samples.

Results

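Glycolysis and hypoxia genes are described here in mouse mammary organoids cultured with and without doxycycline. The set holds 34 genes listed by function: glucose uptake, the steps of glycolysis, lactate handling, and the response to low oxygen through hypoxia-inducible factor (HIF). Of the 34, 31 were measured by the rule used, out of 19937 genes in all. A gene counted as measured when a probe set, the group of array probes that reads a transcript, was assigned to its symbol and to no other. Where a gene had several, the brightest on average stood for it. Gpi1 and Eno1 had no probe set assigned here, and Gapdh had 11 probe sets that each carried at least 4 symbols, so these genes were left out of every count below.

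The organoids came from age-matched female FVB mice of the genotype ErbB3 DOX-KO, in which doxycycline (DOX) induces loss of Erbb3, a receptor kinase related to the EGF receptor. All cultures carried that genotype and were kept for 14 days in a basement-membrane gel, 3 without DOX (control) and 3 with 5 µM DOX. Each culture's total RNA was read on 1 mouse whole-transcript array. The promoter and cell type that drive the knockout, the age of the mice, and whether replicates came from separate mice are not given in the labels, so p values measure the spread between these arrays. No culture of another genotype with DOX is among the 6, so the drug and the knockout cannot be told apart. Values are log2 expression levels, where a difference of 1 is a 2-fold change, and differences are DOX minus control throughout.

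Glycolysis turns 1 glucose into pyruvate in the cytosol. Glucose enters through Slc2a carriers, is trapped by hexokinases, is committed at phosphofructokinase, and is split by aldolase. Lactate dehydrogenase turns pyruvate into lactate, which leaves through Slc16a carriers, and pyruvate dehydrogenase kinases hold pyruvate back from the mitochondria. When oxygen is low, prolyl hydroxylases of the Egln family stop marking HIF-1 alpha for destruction, and HIF raises many of these genes together with Vegfa, Adm, Car9, Bnip3, Ndrg1 and Egln3 itself. In the lactating gland, glucose is also the raw material of milk lactose and fat.

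DOX replicate 2 did not look like the remaining arrays, so the differences that matter below are given with and without it. Its correlation with another array across genes was at most 0.865, whereas each of the other 5 had a partner at 0.992 or more. Genes with high control levels read low on that array and genes with low control levels read high: the median difference from control ran from 0.84 in the lowest 10% step of control level to −1.59 in the highest. Many members lie high on this scale, with a median control level of 8.21 against 5.93 for all genes. The share of calls that were higher was 5.06% with all arrays, 36.4% after a quantile normalization, and 46.2% without DOX replicate 2. Centring each array on its median raised the last share to 68.6% and moved the median difference of all genes from 0.01 to 0.14.

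Erbb3 itself read 9.78, 9.71 and 9.69 in control arrays and 10.36, 9.31 and 9.82 in DOX replicates 1, 2 and 3. Its level was not lower by the labels (difference 0.10, limma adjusted p = 0.845; without DOX replicate 2 0.37, adjusted p = 0.105), so directions below follow the arrays as labelled. Which exons the knockout removes is not stated, so a probe set that averages over the transcript is no clean check of it. The epithelial markers Epcam and Krt8 read 11.56 and 12.52 on average in control arrays. Summed on the linear scale, 12 mammary epithelial markers lay between 14.31 and 14.36 (log2) in control and between 13.16 and 13.78 in DOX arrays. The lowest of these sums was that of DOX replicate 2, and DOX replicates 1 and 3 gave 13.68 and 13.78. Endothelial markers (10) summed to 8.03 to 8.18 in control and 8.12 to 8.83 in DOX arrays. Fibroblast markers (10) summed to 8.44 to 8.57 and 8.36 to 9.40, and adipocyte markers (9) to 7.72 to 7.84 and 7.80 to 8.66. In each of these lists the highest sum was that of DOX replicate 2. DOX replicates 1 and 3 gave 8.12 and 8.21 for endothelial, 8.36 and 8.62 for fibroblast, and 7.80 and 7.88 for adipocyte markers. Macrophage and leukocyte markers (10) summed to 8.65 to 8.73 and 9.07 to 9.20, and muscle, nerve and blood markers (6) to 8.32 to 8.49 and 8.09 to 8.29. The array gives no value of 0. Control means of Pecam1, Cdh5, Adipoq, Fabp4 and Ptprc were 4.56, 4.38, 4.38, 3.52 and 4.48, below the all-gene median of 5.93. The fibroblast markers Col1a1 and Col1a2 lay above it, at 6.46 and 6.00. By list, 7 of 12 epithelial, 2 of 10 fibroblast and 1 of 10 macrophage and leukocyte markers had control means above that median. So did 2 of 6 muscle, nerve and blood markers, and 0 endothelial or adipocyte markers. With all arrays 1 of the epithelial markers was lower and no marker of another cell type passed (limma; at an unadjusted p under 0.05, 5 epithelial and 1 muscle, nerve and blood marker were lower and 1 macrophage and leukocyte marker higher). When DOX replicate 2 was left out, 5 epithelial markers were lower, 2 macrophage and leukocyte markers were higher, and 3 muscle, nerve and blood markers were lower. The shares called over all genes were 14.3% lower and 12.3% higher in that comparison, and 2.26% and 0.12% with all arrays. The part of cell composition in the results below was not tested, and in bulk RNA fewer cells of a type and less RNA per cell cannot be told apart.

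The DNA before the start of the genes whose differences were among the clearest is printed below, because the letters that HIF binds, ACGTG or GCGTG, can be looked for in it. Each line holds the 250 bases upstream of the most 5′ start listed in RefSeq (build GRCm38.p6), read 5′ to 3′ on the gene's strand, with every ACGTG or GCGTG on either strand in capitals. These 5 genes are the 4 called with all arrays and Ldha, a textbook HIF target.

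Aldoc, chr11:78322823-78323072, plus strand: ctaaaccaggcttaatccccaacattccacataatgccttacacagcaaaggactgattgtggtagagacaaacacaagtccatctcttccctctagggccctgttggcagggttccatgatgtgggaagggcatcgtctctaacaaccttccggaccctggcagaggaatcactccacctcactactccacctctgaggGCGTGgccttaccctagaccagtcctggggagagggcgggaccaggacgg

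Egln3, chr12:54203875-54204124, minus strand: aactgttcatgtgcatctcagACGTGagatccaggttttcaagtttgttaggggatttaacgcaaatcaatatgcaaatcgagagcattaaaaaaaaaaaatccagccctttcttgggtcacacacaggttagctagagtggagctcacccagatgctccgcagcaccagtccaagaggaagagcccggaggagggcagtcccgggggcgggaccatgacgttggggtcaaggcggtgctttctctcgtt

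Ldhb, chr6:142507958-142508207, minus strand: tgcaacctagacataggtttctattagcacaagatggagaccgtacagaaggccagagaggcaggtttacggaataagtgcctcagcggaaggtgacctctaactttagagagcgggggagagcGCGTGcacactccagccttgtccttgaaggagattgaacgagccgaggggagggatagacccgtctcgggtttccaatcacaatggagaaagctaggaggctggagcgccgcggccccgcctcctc

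Ldha, chr7:46845554-46845803, plus strand: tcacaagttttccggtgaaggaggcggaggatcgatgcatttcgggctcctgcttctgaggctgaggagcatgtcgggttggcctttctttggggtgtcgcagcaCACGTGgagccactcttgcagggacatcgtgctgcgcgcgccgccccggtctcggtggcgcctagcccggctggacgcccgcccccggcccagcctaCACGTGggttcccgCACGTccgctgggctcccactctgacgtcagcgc

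Vegfa, chr17:46032378-46032627, minus strand: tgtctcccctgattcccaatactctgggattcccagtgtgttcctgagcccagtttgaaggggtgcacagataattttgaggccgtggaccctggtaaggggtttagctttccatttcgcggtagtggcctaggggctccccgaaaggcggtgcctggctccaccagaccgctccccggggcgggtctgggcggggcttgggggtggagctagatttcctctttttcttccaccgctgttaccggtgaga

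The Ldha stretch held 5 matches, all ACGTG, between 145 and 34 bases before the start, and 4 of them were the overlapping forward and reverse matches of 2 CACGTG hexamers. Aldoc had a single GCGTG 50 bases before its start, Ldhb a single GCGTG 126 bases before, and Egln3 a single ACGTG 229 bases before. This Vegfa window held no match, and the window of its other listed start held 2. Of 32 listed genes with a window in the RefSeq table, 29 (90.6%) had ACGTG or GCGTG in at least 1 of their windows, against 41.5% of all 27025 genes in the table. With ACGTG alone, the shares were 59.4% and 18.5%. Ndrg1 and Slc2a3 were not matched. Many of the genes are listed because they are HIF targets, and some have several windows, any of which could supply the match. What lies behind the higher share was not tested, and a match is not a binding site. Members with and without matches lay among those that fell: Tpi1 had none, and Pfkl had a single GCGTG.

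Of the 31 measured genes, 3 fell, 1 rose and 27 did not pass with all 6 arrays (limma, adjusted p under 0.05 over all genes). Among all genes, 2.26% were called lower and 0.12% higher in that comparison. Aldoc, Egln3 and Ldhb fell and Vegfa rose. Once DOX replicate 2 was left out, 11 fell, 5 rose and 15 did not pass, against 14.3% lower and 12.3% higher among all genes. Genes of glycolysis and lactate handling made up 10 of the 11 that fell, and the other was Egln3. Those that rose were Hk2 and the HIF targets Vegfa, Ndrg1, Adm and P4ha1. That comparison rests on 2 DOX arrays. With the lowest 50% of genes removed from it, 5 of 24 members were higher and 12 lower, against 2240 and 2820 of 9968 genes. In 14 genes every DOX array lay below every control array, and in 4 every DOX array lay above, against 20.3% and 11.7% of all genes. Across the 31 genes the median difference was −0.43, or −0.10 in the 5 arrays left after DOX replicate 2 was dropped, against 0.02 and 0.01 for all genes.

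**Figure D1:**
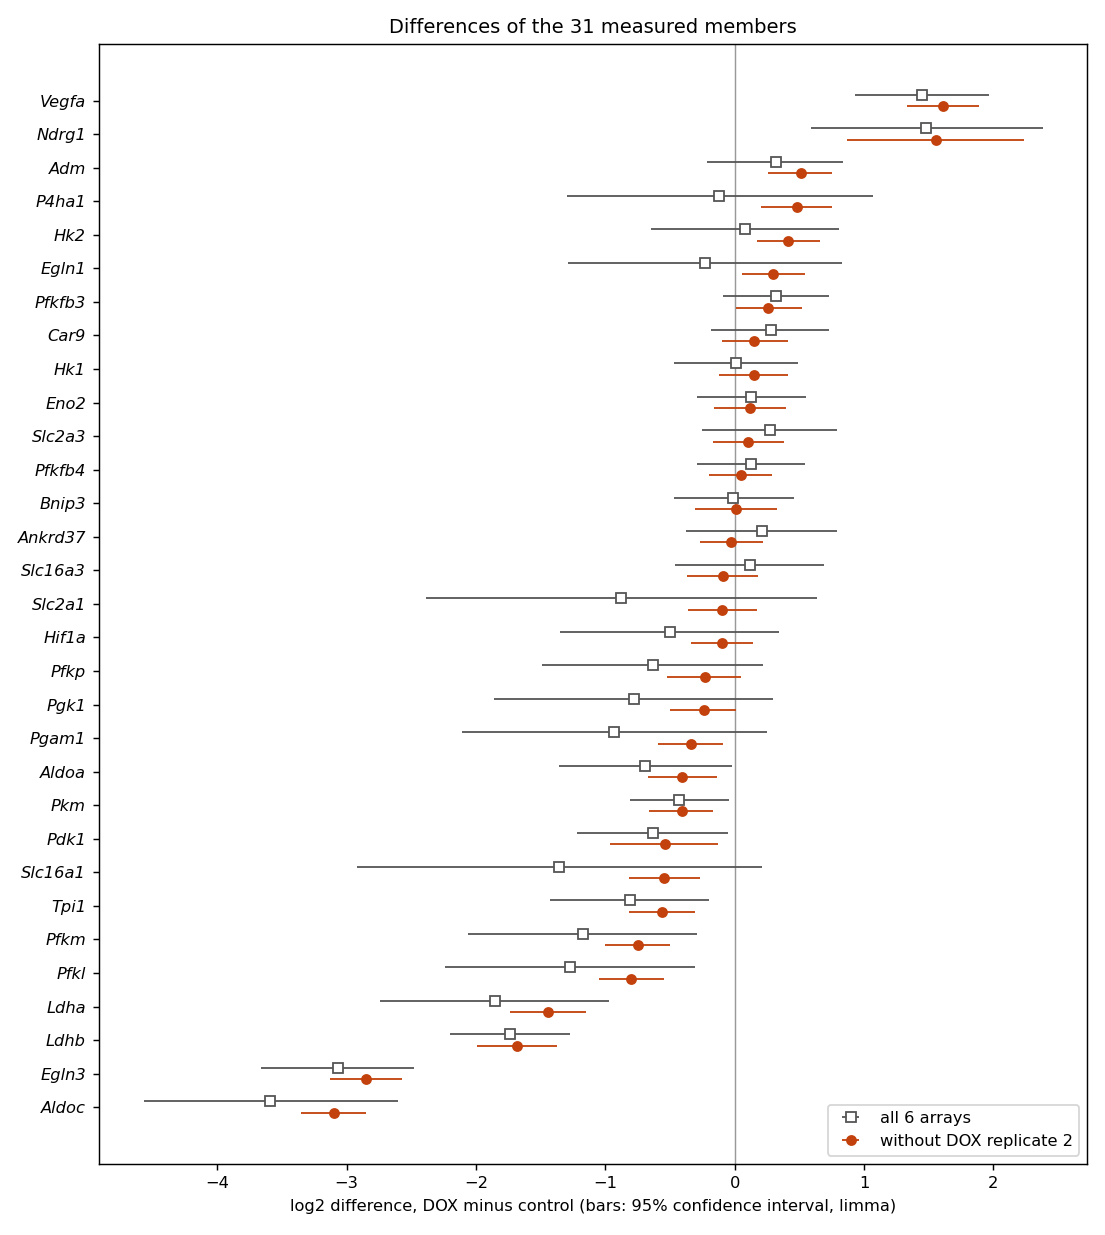
Log2 difference, DOX minus control, of each of the 31 measured genes on the horizontal axis, with 95% confidence intervals from limma; open squares are all 6 arrays and filled circles the 5 arrays without DOX replicate 2. Aldoc (−3.59 and −3.10) and Egln3 (−3.07 and −2.85) lie farthest to the left in both comparisons, Vegfa (1.45 and 1.61) and Ndrg1 (1.48 and 1.56) farthest to the right.

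Neither of the 2 glucose carriers passed limma's test in either comparison, and neither had an unadjusted p under 0.05. Slc2a1, the widespread basal carrier also known as GLUT1, read 9.95, 10.02 and 10.03 in control arrays and 10.03, 7.56 and 9.77 in DOX replicates 1, 2 and 3. The low value was that of DOX replicate 2 alone, and DOX replicate 1 equalled the highest control. The difference was −0.88 (SE 0.63, limma adjusted p = 0.50) with all arrays and −0.10 (95% confidence interval −0.36 to 0.17, adjusted p = 0.606) without that array. Slc2a3, a high-affinity carrier best known from neurons, read 4.69 to 4.82 in control and 4.72 to 5.36 in DOX arrays, with overlapping groups.

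The hexokinases, which phosphorylate glucose on entry, differed from each other and between probe sets. Hk2, the inducible form, read 6.65, 6.52 and 6.60 in control arrays and 7.04, 6.00 and 6.96 in DOX replicates 1, 2 and 3. DOX replicates 1 and 3 lay above all controls and DOX replicate 2 below them. Hk2 rose without DOX replicate 2 (0.41, SE 0.11, limma adjusted p = 0.0178) and had a difference of 0.08 with it (adjusted p = 0.889). Dropping control replicate 2 or control replicate 3 too ended the call (adjusted p = 0.0663 and 0.0528).

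For Hk1, the constitutive form, the rule picked a probe set that reads something uncertain. That probe set lists a single accession, which 16 other probe sets also list, and 15 of those are assigned to the ribosomal protein gene Rpl17 too. It read 12.77, 12.68 and 12.52 in control and 12.78, 12.40 and 12.83 in DOX arrays (difference 0.01, limma adjusted p = 0.981). The other Hk1 probe set, which lists RefSeq transcripts of Hk1, read 9.68, 9.62 and 9.73 in control arrays and 9.02, 8.89 and 9.08 in DOX arrays. Here the groups did not overlap, and the 3 DOX arrays, replicate 2 included, lay close together. This probe set lies in the top 10% step of control level, where all genes read a median of −1.59 on DOX replicate 2. Its difference was −0.68 (SE 0.17, limma adjusted p = 0.118) with all arrays and −0.63 (SE 0.11, adjusted p = 0.0016) without DOX replicate 2. This choice of probe set was made after the values were seen, and it turns the direction of Hk1. Counted this way, 12 members fell without DOX replicate 2.

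Upper glycolysis, from phosphofructokinase to triose phosphate isomerase, held 5 of the 11 genes that fell without DOX replicate 2. Of 6 measured members, 1 fell with all arrays and 5 without DOX replicate 2, none rose in either, and all 6 differences were negative. Over all genes the shares called lower were 2.26% and 14.3%. All 6 lie in the top 10% step of control level, where all genes read medians of −0.06, −1.59 and −0.12 in DOX replicates 1, 2 and 3. Aldoc, the aldolase form first described in brain, fell most. It read 11.24, 11.28 and 11.39 in control arrays (11.30 ± 0.08, SD, n = 3) and 8.16, 6.75 and 8.25 in DOX arrays (7.72 ± 0.84, SD, n = 3). The lowest control lay 2.99 above the highest DOX array.

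The Aldoc difference was −3.59 (SE 0.41, limma adjusted p = 0.00953), 12.0-fold lower. In the 5 arrays it was −3.10 (SE 0.11, adjusted p = 2.31e-08), 8.58-fold lower. Leaving out any single control array ended the call with all other arrays kept (adjusted p = 0.0797 to 0.0846), at differences between −3.54 and −3.62. Beside genes of the same 10% step of control level, Aldoc lay −3.08, −2.96 and −2.94 from their median in DOX replicates 1, 2 and 3, about equally far below genes of like level on each.

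Aldoa, the aldolase of most tissues, read 12.18, 12.30 and 12.29 in control arrays and 11.98, 10.99 and 11.72 in DOX arrays. It did not overlap between groups and fell without DOX replicate 2 by 0.41 (SE 0.12, limma adjusted p = 0.029), a call lost when any control array was left out too (adjusted p = 0.0541 to 0.0927) or when arrays were centred on their medians (adjusted p = 0.115). With all arrays its difference was −0.69 (adjusted p = 0.342). Aldoc changed more than Aldoa within every DOX array: the difference between them moved by −2.87, −3.29 and −2.52 from its control mean, which itself varied by an SD of 0.06 (n = 3).

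Phosphofructokinase has a liver, a muscle and a platelet form, encoded by Pfkl, Pfkm and Pfkp. Pfkl read 10.11, 9.99 and 10.01 in control arrays and 9.18, 7.82 and 9.29 in DOX arrays. Pfkm read 9.10, 9.08 and 9.13 in control arrays and 8.26, 7.07 and 8.45 in DOX arrays. Both were lower in every DOX array than in any control, and DOX replicate 2 was the lowest.

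In the 5 arrays without DOX replicate 2, Pfkl fell by 0.80 and Pfkm by 0.75 (SE 0.11 each, limma adjusted p = 3.82e-04 and 6.71e-04). With all arrays the differences were −1.27 and −1.17 and did not pass (adjusted p = 0.226 and 0.225), but both passed with all arrays after quantile normalization (adjusted p = 0.0249 and 0.0378). Pfkp, with 9.65, 9.37 and 9.64 in control and 9.38, 8.12 and 9.26 in DOX arrays, overlapped between groups and did not pass (−0.63, adjusted p = 0.448; without DOX replicate 2 −0.23, adjusted p = 0.21). The Pfkp minus Pfkl difference rose within each DOX array, by 0.68, 0.79 and 0.45.

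Tpi1, which interconverts the triose phosphates that aldolase makes, read 10.82, 10.98 and 10.77 in control arrays and 10.29, 9.54 and 10.31 in DOX arrays. The groups did not overlap, and without DOX replicate 2 it fell by 0.56 (SE 0.12, limma adjusted p = 0.00433). With all arrays its difference was −0.81 (adjusted p = 0.225).

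Pfkfb3 and Pfkfb4, bifunctional enzymes that set the level of fructose 2,6-bisphosphate, the strongest activator of phosphofructokinase, did not pass with all arrays, nor at an unadjusted p under 0.05 (limma). Pfkfb3 read 6.10, 6.22 and 6.15 in control and 6.51, 6.60 and 6.33 in DOX arrays, higher in every DOX array (0.32, limma adjusted p = 0.438; without DOX replicate 2 0.26, adjusted p = 0.119). It passed without DOX replicate 2 after quantile normalization, cyclic loess or median centring (differences 0.43, 0.32 and 0.40, adjusted p = 0.0088 to 0.0391). Pfkfb4 read 4.92 to 5.04 in control and 4.98 to 5.26 in DOX arrays, with overlap.

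Lower glycolysis, from 3-phosphoglycerate formation to pyruvate, had smaller differences. Of 4 measured members none passed with all arrays (limma), where 1 was lower at an unadjusted p under 0.05. Without DOX replicate 2, 2 of the 4, Pgam1 and Pkm, fell, against 14.3% of all genes called lower. Pgk1, the first enzyme of the chain to make ATP, read 11.68, 11.50 and 11.71 in control arrays and 11.36, 9.77 and 11.40 in DOX arrays, which did not overlap. Its differences were −0.78 over 6 arrays and −0.24 without DOX replicate 2, and neither passed (limma adjusted p = 0.452 and 0.154). Pgam1, phosphoglycerate mutase, read 9.27, 9.28 and 9.15 against 8.95, 7.11 and 8.84, and fell without that array by 0.34 (SE 0.11, adjusted p = 0.0479), a call close to the threshold that was lost without any control array (adjusted p = 0.0746 to 0.145) and after median centring. With all arrays its difference was −0.93 (adjusted p = 0.438). It has a single probe set, and whether that reads Pgam1 or a copy elsewhere in the genome was not tested.

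Pkm, pyruvate kinase of most tissues, had DOX replicate 2 close to both other DOX arrays. Genes of its control level read a median of −1.59 on DOX replicate 2. Pkm lay 1.14 above that median there, and −0.35 and −0.30 from the medians of its level in DOX replicates 1 and 3. It read 11.43, 11.30 and 11.39 in control arrays (11.38 ± 0.07, SD, n = 3) and 10.97, 10.92 and 10.96 in DOX arrays (10.95 ± 0.02, SD, n = 3). The groups did not overlap, with a difference of −0.43 over 6 arrays and of −0.41 without DOX replicate 2, where it passed (SE 0.11, limma adjusted p = 0.0175; adjusted p = 0.309 with all arrays). That call was lost without control replicate 1 or control replicate 3 (adjusted p = 0.0748 and 0.0601). After cyclic loess the difference with all arrays was 0.01. The other Pkm probe set, which lists RefSeq transcripts, gave −0.45 and −0.35, with adjusted p = 0.0403 for the latter. Which locus the first of these reads was not tested.

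Eno2, the neuronal enolase, read 5.54 to 5.87 in control and 5.78 to 5.86 in DOX arrays, with overlap (0.13, limma adjusted p = 0.687). The 11 probe sets that hold Gapdh among several symbols could not be attributed to it. Their differences ran from −0.86 to 0.82, with 8 negative and 3 positive.

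Lactate dehydrogenase genes were lower in every DOX array. Ldha, the muscle-type subunit and the main one of lactate-producing cells, read 12.43, 12.39 and 12.47 in control arrays (12.43 ± 0.04, SD, n = 3) and 10.78, 9.75 and 11.18 in DOX arrays (10.57 ± 0.74, SD, n = 3). The lowest control lay 1.21 above the highest DOX array. Ldha fell by 1.44 without DOX replicate 2 (SE 0.13, limma adjusted p = 1.87e-05), 2.72-fold, and with all arrays its difference of −1.85 (SE 0.37) did not pass (adjusted p = 0.0632). It did pass with all arrays after quantile normalization or cyclic loess (adjusted p = 0.00661 and 0.00265).

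Ldhb, the heart-type subunit, fell with all arrays. It read 7.70, 7.75 and 7.81 in control arrays and 6.30, 5.91 and 5.84 in DOX arrays, a difference of −1.74 (SE 0.19, limma adjusted p = 0.00891), 3.33-fold lower, and −1.68 without DOX replicate 2 (adjusted p = 8.62e-06). The 3 DOX values lay within a narrow band. Beside genes of its control level, Ldhb lay −1.50, −0.78 and −1.81 from their median in DOX replicates 1, 2 and 3. Its call with all arrays was lost without DOX replicate 3 (adjusted p = 0.0524) or without any control array (adjusted p = 0.0839 to 0.0946). Copies of the gene elsewhere in the genome could share probes with the Ldhb probe set used, and which locus it reads was not tested. A second Ldhb probe set read 6.77, 6.80 and 6.52 against 5.53, 5.85 and 5.57, a difference of −1.05, or −1.15 without DOX replicate 2. Ldhb minus Ldha moved by 0.19, 0.83 and −0.66 in the DOX arrays (mean 0.12, two-sided exact permutation p = 0.7), up in 2 arrays and down in 1, so the data do not order the 2 changes.

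Of the lactate carriers, 1 of 2 passed, in the 5 arrays alone, where 14.3% of all genes were called lower. Slc16a1, or MCT1, which moves lactate in either direction, read 8.68, 8.41 and 8.69 in control arrays and 8.00, 5.63 and 8.08 in DOX arrays. It did not overlap between groups and fell without DOX replicate 2 by 0.55 (SE 0.12, limma adjusted p = 0.00745); with all arrays the difference of −1.36 had a wide interval of −2.92 to 0.21. Slc16a3, or MCT4, the exporter of glycolytic cells and a HIF target, overlapped between groups (5.49 to 5.78 and 5.47 to 6.15) and did not pass (0.12, adjusted p = 0.792; without DOX replicate 2 −0.09, adjusted p = 0.627).

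Pdk1, a kinase that shuts pyruvate dehydrogenase and is raised by HIF, read 6.99, 6.74 and 6.84 in control arrays and 5.94, 6.04 and 6.68 in DOX arrays. Every DOX array lay below every control, DOX replicate 3 by little. Its difference of −0.63 did not pass (limma adjusted p = 0.321), nor did −0.54 without DOX replicate 2 (adjusted p = 0.0518), which passed in 6 of 13 alternatives at the same threshold.

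**Figure D2:**
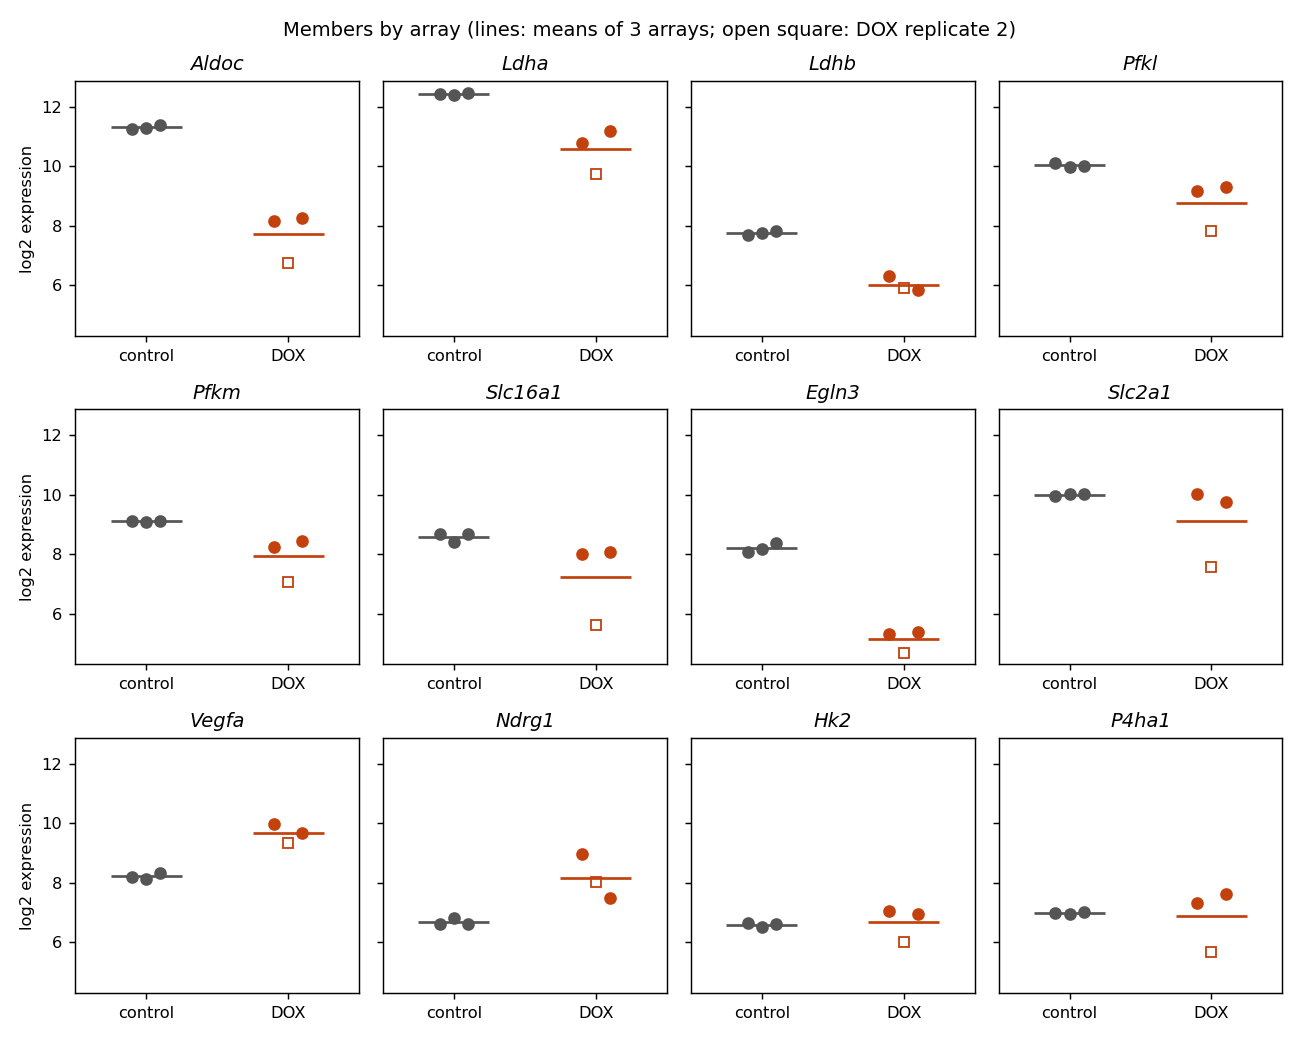
Log2 expression (vertical axis) of 12 members in each of the 3 control arrays (grey) and the 3 DOX arrays (orange); horizontal lines are means of 3 arrays, and the open square is DOX replicate 2. Aldoc, Ldha, Ldhb, Pfkl, Pfkm, Slc16a1 and Egln3 are lower in all 3 DOX arrays, Vegfa and Ndrg1 higher in all 3, and in Slc2a1, Hk2 and P4ha1 the open square lies apart from both other DOX arrays.

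Of the 3 genes of the HIF pathway, 1 passed, as lower, in each comparison. Over all genes 2.26% were called lower with all arrays and 14.3% without DOX replicate 2. Hif1a, the regulated HIF subunit, whose protein is controlled mainly by breakdown and not by its RNA, read 9.05, 9.05 and 9.01 in control and 8.90, 7.73 and 8.98 in DOX arrays. It lay −0.14, −1.31 and −0.06 from the control mean in DOX replicates 1, 2 and 3, and genes of its control level read a median of −1.36 on DOX replicate 2. Its difference was −0.50 with all arrays (limma adjusted p = 0.494) and −0.10 without that array (95% confidence interval −0.34 to 0.14, adjusted p = 0.564). Egln1, or PHD2, the main HIF prolyl hydroxylase, read 8.34, 8.45 and 8.43 against 8.71, 7.12 and 8.70. Only DOX replicate 2 was low, and the difference was −0.23 with it and 0.30 without it (adjusted p = 0.781 and 0.0668).

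Egln3, or PHD3, the hydroxylase most strongly raised by HIF in many cells, fell with all arrays. It read 8.07, 8.17 and 8.39 in control arrays (8.21 ± 0.17, SD, n = 3) and 5.33, 4.69 and 5.40 in DOX arrays (5.14 ± 0.39, SD, n = 3). The difference was −3.07 (SE 0.25, limma adjusted p = 0.003), 8.41-fold lower, and −2.85 (SE 0.13, adjusted p = 8.46e-08) without DOX replicate 2. It was the only member called in all 17 alternatives run with 1 setting changed (adjusted p at most 0.0445), and Egln3 minus Egln1 moved by −3.19, −2.24 and −3.11 in DOX replicates 1, 2 and 3.

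Of the 7 measured members listed as HIF targets outside the glycolytic chain, Egln3 not among them, 1 rose with all arrays and 4 without DOX replicate 2 (limma). Over all genes the shares called higher were 0.12% and 12.3%. None of the 7 passed as lower. At an unadjusted p under 0.05 with all arrays (limma), 2 were higher and 0 lower. Vegfa, the main growth factor of blood vessels, read 8.18, 8.13 and 8.33 in control arrays (8.21 ± 0.11, SD, n = 3) and 9.97, 9.34 and 9.68 in DOX arrays (9.66 ± 0.31, SD, n = 3). The lowest DOX array lay 1.01 above the highest control.

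Vegfa rose by 1.45 (SE 0.22, limma adjusted p = 0.0238), 2.73-fold, and by 1.61 (SE 0.13, adjusted p = 6.00e-06) without DOX replicate 2. The call with all arrays was lost when any array other than DOX replicate 2 was left out (adjusted p = 0.0645 to 0.187), at differences of 1.30 to 1.51. Genes of its control level read a median of −1.36 on DOX replicate 2, and Vegfa lay 2.49 above that median there, against 1.74 and 1.53 in DOX replicates 1 and 3.

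Ndrg1, a stress-induced gene linked to differentiation and metastasis control, read 6.63, 6.81 and 6.60 in control arrays and 8.97, 8.01 and 7.50 in DOX arrays. All DOX arrays were higher, by amounts that varied. It rose without DOX replicate 2 by 1.56 (SE 0.31, limma adjusted p = 0.00357), a call lost under a robust variance trend (adjusted p = 0.0766), and its difference of 1.48 with all arrays did not pass (adjusted p = 0.133).

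Adm, the vasodilator adrenomedullin, read 4.88, 4.93 and 4.92 in control and 5.49, 4.85 and 5.35 in DOX arrays. P4ha1, a collagen prolyl hydroxylase subunit, read 7.00, 6.95 and 7.02 in control and 7.31, 5.68 and 7.63 in DOX arrays. In both, DOX replicate 2 was below the controls and the other DOX arrays above them.

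In the 5 arrays Adm rose by 0.51 and P4ha1 by 0.48 (SE 0.11 and 0.12, limma adjusted p = 0.00593 and 0.0162). With all arrays the differences were 0.32 and −0.12 (adjusted p = 0.489 and 0.899), and P4ha1 lost its call without control replicate 2 as well (adjusted p = 0.0616).

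Car9, Bnip3 and Ankrd37 did not pass in either comparison. Car9, the tumour carbonic anhydrase often used as a hypoxia marker, read 4.60, 4.59 and 4.59 in control and 4.86, 5.12 and 4.64 in DOX arrays. All DOX arrays were higher, but genes of that control level read a median of 0.79 higher on DOX replicate 2. The Car9 difference without that array was 0.15 (limma adjusted p = 0.369). Bnip3, a mitophagy receptor, read 5.95 to 6.26 and 5.90 to 6.28 (difference −0.01, or 0.01 without DOX replicate 2). A second probe set of it gave 0.15 and −0.18, and which locus the first reads was not tested. Ankrd37 read 5.16 to 5.19 in control and 5.07 to 5.85 in DOX arrays (difference 0.21; −0.03 without DOX replicate 2).

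**Figure D3:**
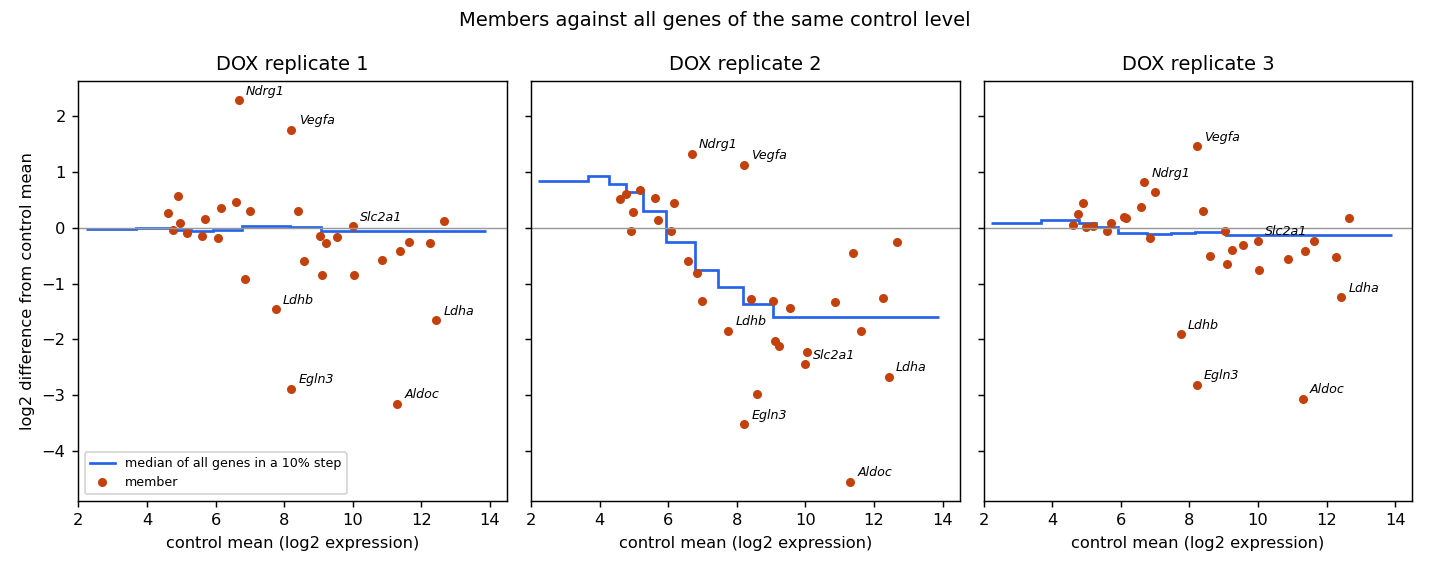
Difference of each member (orange) from its control mean in DOX replicates 1, 2 and 3, against its control mean, both on the log2 scale; the blue steps are the median over all genes in each 10% step of control level. The blue line stays between −0.12 and 0.14 in DOX replicates 1 and 3 and runs from 0.93 to −1.59 in DOX replicate 2, and Aldoc, Egln3, Ldha and Ldhb lie below it and Vegfa and Ndrg1 above it in each panel.

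Measured against genes of the same control level, part of the fall on DOX replicate 2 was shared by other genes. In the top 10% step, which holds 12 members, the members' median on that array was −1.94 and that of all genes −1.59, and 7 of the 12 lay below the latter. On DOX replicates 1 and 3 together the medians were −0.41 for the members and −0.09 for all genes of the step, and 11 of the 12 members were below 0. Hk1 by the rule's probe set was the exception.

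Family members were also compared within arrays, which removes any offset an array gives to all genes alike. It does not remove the shift of DOX replicate 2 that varies with control level, where the 2 genes differ in that level. On that array, genes of the control level of Slc2a3 and Slc2a1 read medians of 0.79 and −1.59. Those of the level of Slc16a3 and Slc16a1 read 0.30 and −1.36. Of 9 pairs fixed, 8 could be tested (Eno1 was not measured), by two-sided exact permutation, where 3 against 3 arrays, like 2 against 3, cannot give a p under 0.1. Aldoc minus Aldoa (−2.89), Egln3 minus Egln1 (−2.84), Slc16a3 minus Slc16a1 (1.47), Pfkp minus Pfkl (0.64) and Pfkfb4 minus Pfkfb3 (−0.20) reached that smallest exact p (adjusted over the 8 pairs, 0.16). At that smallest p every DOX array lies beyond every control, so each of the 5 moved the same way in 3 of 3 DOX arrays by necessity. The design cannot reach 0.05, and Slc16a3 minus Slc16a1 moved by 0.45 in the mean without DOX replicate 2 (exact p = 0.2). Slc2a3 minus Slc2a1 (1.15, exact p = 0.3) moved by 3.04 in DOX replicate 2 and by −0.07 and 0.47 in the others, and Hk2 minus Hk1 (0.07, exact p = 0.8) changed to 0.76 with the RefSeq-listed Hk1 probe set.

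**Figure D4:**
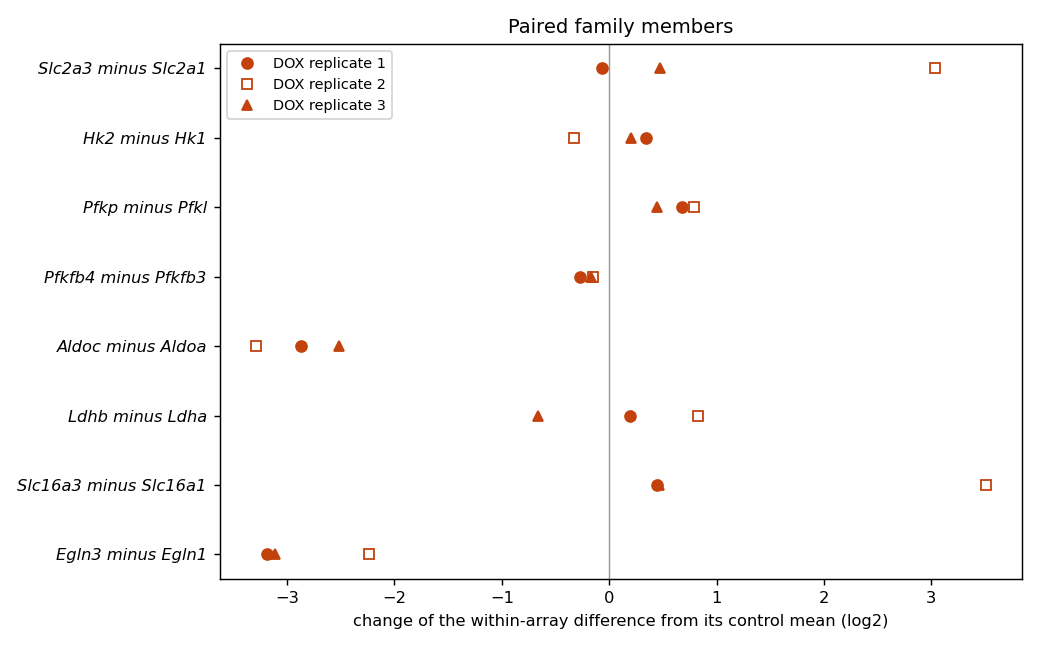
Change of the within-array difference between 2 family members from its control mean (log2, horizontal axis) in DOX replicate 1 (circle), 2 (open square) and 3 (triangle). Aldoc minus Aldoa and Egln3 minus Egln1 lie between −3.29 and −2.24 in all 3 arrays, whereas the open square stands at 3.04 and 3.51 for the glucose and lactate carrier pairs. The genes of these carrier pairs differ in control level, and the shift of DOX replicate 2 varies with that level.

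The other genes of these pathways, 137 measured in 7 lists, gave 1 higher and 4 lower with all arrays and 22 higher and 26 lower without DOX replicate 2. Among all genes the shares called were 0.12% higher and 2.26% lower with all arrays, and 12.3% and 14.3% in the 5 arrays. The median differences of the 137 were −0.19 and −0.01. Ldhd, a D-lactate dehydrogenase, read 9.64 to 9.79 in control and 6.66 to 7.69 in DOX arrays and fell by 2.47 (SE 0.29, limma adjusted p = 0.00989), the only one of 26 other isozymes and carriers to pass with all arrays; without DOX replicate 2, 1 was higher and 5 lower. Of 13 genes of gluconeogenesis and side branches, Pcx, the pyruvate carboxylase that feeds oxaloacetate, fell by 2.36 (SE 0.23, adjusted p = 0.00555). Gpd1, which links glycolysis to glycerol lipids, fell by 1.96 (SE 0.30, adjusted p = 0.0254). Of the 13, 1 was higher and 4 lower in the 5 arrays. These 3 genes passed without DOX replicate 2 as well, at −2.17, −2.15 and −1.65.

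None of 12 genes of pyruvate entry into mitochondria passed with all arrays (limma; 1 lower at an unadjusted p under 0.05), and without DOX replicate 2, 2 were higher and 1 lower. Pdp2, a pyruvate dehydrogenase phosphatase, was at −0.88 (limma adjusted p = 0.0998) and fell in the 5 arrays, to a difference of −1.03 (adjusted p = 8.57e-05). Pdk3, another kinase of that enzyme, was at −0.63 and −0.31 (adjusted p = 0.407 and 0.075). None of 7 pentose phosphate genes passed with all arrays (limma; 1 lower at an unadjusted p under 0.05), with Tkt, transketolase, at −0.81 and Pgd at −0.79 (adjusted p = 0.212 and 0.411). In the 5 arrays 1 was higher and 2 lower, and Tkt and Pgd fell by 0.57 and 0.35 (adjusted p = 0.00411 and 0.037). Over all genes 12.3% were called higher and 14.3% lower in the 5 arrays.

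Of 16 glycogen genes, Stbd1, which ties glycogen to membranes, rose by 1.96 (SE 0.31, limma adjusted p = 0.0285), from 4.86 to 5.26 in control to 6.51 to 7.60 in DOX arrays, and by 2.01 without DOX replicate 2. In the 5 arrays 1 glycogen gene was higher and 3 lower, against 12.3% and 14.3% of all genes. None of 17 genes of oxygen sensing and HIF subunits passed with all arrays (limma; 3 were lower at an unadjusted p under 0.05). The HIF-2 alpha gene Epas1 (−0.62, adjusted p = 0.286) and the ubiquitin ligase gene Siah1b (−0.60, adjusted p = 0.266) had the smallest p. Without DOX replicate 2, 4 were higher and 3 lower, and Epas1 and Siah1b fell by 0.43 and 0.52 (limma adjusted p = 0.0185 and 0.0239).

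Of 48 other HIF targets, Cxcr4, a chemokine receptor, was the only one to pass with all arrays. It read 9.09, 9.12 and 9.20 in control and 6.48, 6.48 and 6.76 in DOX arrays, and fell by 2.56 (SE 0.18, limma adjusted p = 0.00205), with a difference of −2.51 without DOX replicate 2. In the 5 arrays 12 of the 48 were higher and 8 lower, against 12.3% and 14.3% of all genes. The list's median difference was −0.16 over 6 arrays and 0.04 over 5.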

How the data were processed

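The deposited table holds log2 expression values per probe set for 6 arrays, and RMA and the affy package are named, without versions, per the submitters' processing notes. It was used as deposited. Of 34760 probe sets, 21640 had 1 gene symbol in the platform annotation, 1321 had several and 11799 had none here; only the first were used, giving 19937 genes. The sources used here do not name the array's genome build, so coordinates are those of the RefSeq promoter table. RMA gives no detection calls, so low levels have no stated floor, and the number of arrays limits precision.

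Groups and replicate numbers came from the sample titles. All genes were fitted with limma 3.58.1 in R 4.3.3 (lmFit, eBayes, no covariates, two-sided), with Benjamini-Hochberg adjustment over all genes and a threshold of 0.05. The fit was also run on simulated arrays. These had independent noise of equal spread in every array, so that run does not cover the shift of DOX replicate 2. The members, the 7 pathway lists, the marker lists and the tests were chosen with earlier results of these data known. All measured members are named; other genes were named if past the threshold (up to 4 a list), or else as the 2 with the smallest p. Alternatives were the replicate block, low-level filters, normalizations, probe set rules, variance models, array weights, thresholds and leaving out each array. The RefSeq-listed probe set rule was added after seeing the data.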

Additional observations from a re-analysis of the deposited data

How the results depend on the processing

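Counts of called members depended mainly on DOX replicate 2. With all arrays 1 member was higher; the count was 0 with the replicate block and under a robust variance trend (limma), 2 after cyclic loess and 5 with array weights, which gave DOX replicate 2 a weight of 0.0333. Leaving out single arrays gave 0 to 5 higher and 1 to 11 lower members, the highest of each without DOX replicate 2 and 1 lower without any control array. The 3 lower members became 6 after quantile normalization and after cyclic loess and 11 with array weights. Without DOX replicate 2, the 5 higher and 11 lower became 2 and 4 when a difference of at least 1 was required as well, and leaving out a control array too gave 3 to 5 higher and 8 to 9 lower. After median centring they were 7 and 8, against 4568 and 2088 of all 19937 genes. Requiring a difference of at least 1 without DOX replicate 2 left 283 and 680 of all genes. With all arrays, calls over all genes were 3642 higher and 3752 lower with array weights. They were 314 and 548 after quantile normalization, and 628 and 1099 after cyclic loess. Other pathway genes went from 1 higher to 0 with the replicate block, 2 without the lowest 25% of genes, under the variance trend and at an adjusted p under 0.1, 4 after quantile normalization, 12 after cyclic loess and 26 with array weights, and from 4 lower to 9 after cyclic loess and 36 with array weights; single arrays left out gave 0 to 22 and 1 to 26.

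Same-numbered arrays correlated at 0.117, 0.194 and 0.0852 in their deviations from the group means, so the number was not taken to pair them. With the replicate block, Ldhb and Vegfa lost their calls (limma adjusted p = 0.0638 and 0.101); without DOX replicate 2 the block ended the calls of Hk2, Aldoa and Pgam1 (adjusted p = 0.0799, 0.0924 and 0.152) and Pdk1 passed (0.0304). With all arrays, calls over all genes went from 24 higher and 450 lower to 3 and 159; for 2 of 3 numbers the control correlated best with its own.

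Members whose direction turned with all arrays had no call there as deposited. Hk1 gave −0.34 as the mean over probe sets and −0.68 with the RefSeq-listed one, and −0.07 to 0.15 when single arrays were left out. Hk2 gave −0.11 to 0.41 when single arrays were left out, Slc16a3 −0.09 to 0.25, Egln1 −0.49 to 0.30, Bnip3 −0.11 to 0.09, Ankrd37 −0.03 to 0.36 and P4ha1 −0.50 to 0.48. After quantile normalization Pfkfb4 was at −0.09, Egln1 at 0.12 and Bnip3 at 0.10. After cyclic loess Pfkfb4 was at −0.12, Pkm at 0.01, Egln1 at 0.19, Bnip3 at 0.06, Car9 at −0.01 and P4ha1 at 0.16. With array weights Slc16a3 was at −0.04, Egln1 at 0.29, Bnip3 at 0.16 and P4ha1 at 0.56. Bnip3 was at 0.06 after median centring and 0.07 as the mean over probe sets. The causes were not tested.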
